A study of Homo sapiens with 24 samples.

Results

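Genes of carbonyl reduction, aldehyde oxidation, conjugation and xenobiotic oxidation were followed through 4 RNA-seq experiments on OE33, a human cell line derived from an esophageal adenocarcinoma. The 10 members were the aldo-keto reductases AKR1B1, AKR1B10, AKR1C1, AKR1C2 and AKR1C3, the aldehyde dehydrogenases ALDH1A1 and ALDH3A1, the glutathione transferase GSTP1, the glucuronosyltransferase UGT1A6 and the cytochrome P450 CYP1A1. The 10 rows were found by matching each symbol to its Ensembl identifier among the 61860 gene rows of every count table, and all 10 were present. Each experiment compared 3 treated with 3 control libraries, which gave 24 libraries in 8 groups.

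In the first experiment OE33 cells grew for 21 days as subcutaneous tumors in male BALB/c-nu nude mice, which were bought at 4 weeks of age. They were fed for 8 weeks before injection with either normal chow (ND) or chow rich in fat (HFD). Each mouse stayed on its diet while the tumors grew. The other 3 experiments used cultured OE33 cells that were transfected with a plasmid. They carried HA-tagged TRIM15 or the empty vector (EV) for 48 h, a short hairpin RNA against YY2 (shYY2) or its control (shControl) for 72 h, and a hairpin against FOXRED1 (shFOXRED1) or a separate shControl for 72 h. TRIM15 is a ubiquitin ligase, YY2 a zinc finger transcription factor and FOXRED1 an assembly factor of mitochondrial complex I, and the study examined them as possible steps of a chain that starts from the diet. All groups are derivatives of 1 cell line, the hosts lack mature T cells, and the sources do not say which hairpin was sequenced or whether replicates came from separate mice and cultures. The p-values therefore measure the spread between these libraries only, and in bulk RNA fewer expressing cells cannot be told apart from less RNA per cell.

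Aldo-keto reductases use NADPH to turn aldehydes and ketones into alcohols, and the AKR1C enzymes do so on steroids and prostaglandins as well as on lipid aldehydes and drugs. Several of these genes, with ALDH3A1, GSTP1 and UGT1A6, are known targets of NRF2, the transcription factor that binds antioxidant response elements after oxidative or electrophilic stress. CYP1A1 oxidizes polycyclic aromatic compounds and is the classic target of the aryl hydrocarbon receptor (AHR), which binds xenobiotic response elements, and ALDH3A1 and UGT1A6 can respond to the same receptor.

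The AKR1C genes lie next to each other on chromosome 10 and are close copies, which bears on every AKR1C value here. The coding sequences of AKR1C1 and AKR1C2 were identical at 98.0% of 969 bases and shared a run of 186 identical bases, longer than the 150-base reads. AKR1C3 was identical to AKR1C1 at 91.8% and to AKR1C2 at 91.2%, with a run of 171 identical bases shared with AKR1C2. The stretch shown holds 10 of the 19 differences between the coding sequences of AKR1C1 and AKR1C2, the most in any 60 coding bases. It is coding bases 103 to 162, in exon 2 of each gene (GENCODE 29, GRCh38), at chr10:4965932-4965991 on the plus strand for AKR1C1, chr10:5001604-5001663 on the minus strand for AKR1C2 and chr10:5096428-5096487 on the plus strand for AKR1C3. Capitals mark the bases at which the 3 genes are not all alike.
AKR1C1: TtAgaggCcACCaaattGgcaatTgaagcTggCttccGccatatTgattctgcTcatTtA
AKR1C2: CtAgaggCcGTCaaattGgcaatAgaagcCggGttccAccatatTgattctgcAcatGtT
AKR1C3: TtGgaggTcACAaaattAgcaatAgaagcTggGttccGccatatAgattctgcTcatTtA

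Of all 150-base words in the annotated coding transcripts, 10.6% of those of AKR1C1, 17.6% of those of AKR1C2 and 1.0% of those of AKR1C3 also occurred in another gene. For UGT1A6, which shares its last exons with the other UGT1A genes, the share was 55.1%. The 6 other members shared none. These shares count single words over all annotated isoforms, not reads, and leave out the second read of a pair. They therefore do not measure how many reads were affected. How the authors' counting treated reads that match 2 genes is not given in the sources used here. The rows of AKR1C1, AKR1C2 and UGT1A6, and to a lesser degree AKR1C3, are uncertain for that reason.

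The start regions of members were searched on both strands for the antioxidant response element core TGACNNNGC, the xenobiotic response element core GCGTG and the YY1/YY2 core GCCATNTT, in windows from 250 bases before to 50 bases after each annotated start (RefSeq, GRCh38.p14). Windows of 8 of the 10 members were searched, and AKR1B10 and ALDH3A1 were not analysed here. Of the 35116 windows in the table, 13.3% held the first, 36.5% the second and 6.6% the third. The CYP1A1 window held GCGTG, beginning 57 bases before the start, and the GSTP1 window held the antioxidant core 66 bases before the start. One of the AKR1C3 start windows held the YY core on its opposite strand, 104 bases before the start. The other AKR1C3 window, at chr10:5094164-5094463, held none of the motifs. It is the nearer of these AKR1C3 windows to the coding stretch of exon 2 shown above, at chr10:5096428-5096487. Which AKR1C3 start was in use in these cells was not tested. The 150 bases before these starts are shown because CYP1A1 and AKR1C3 had the largest fold changes after YY2 knockdown and GSTP1 had some of the smallest across the study. Capitals mark the match. They lie at chr15:74725529-74725678 on the minus strand (CYP1A1), chr11:67583662-67583811 on the plus strand (GSTP1) and chr10:5048631-5048780 on the plus strand (AKR1C3).
CYP1A1: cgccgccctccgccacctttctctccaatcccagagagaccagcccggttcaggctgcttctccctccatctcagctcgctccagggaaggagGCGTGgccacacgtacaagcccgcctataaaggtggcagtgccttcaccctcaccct
GSTP1: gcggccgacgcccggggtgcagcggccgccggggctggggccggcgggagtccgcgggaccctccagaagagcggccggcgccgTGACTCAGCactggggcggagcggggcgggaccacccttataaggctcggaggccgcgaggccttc
AKR1C3: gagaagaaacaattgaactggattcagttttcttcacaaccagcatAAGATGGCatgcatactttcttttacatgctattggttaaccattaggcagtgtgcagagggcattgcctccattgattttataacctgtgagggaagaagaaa

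Windows of AKR1C1, AKR1C2 and ALDH1A1 held none of the 3 motifs, although those of AKR1C1 and AKR1C2 were identical at 93.5% of aligned positions. The start windows of AKR1B1 overlap, and the xenobiotic core found in each of them is the same site. UGT1A6 held the xenobiotic core in one window and the antioxidant core in another. No matches overlapped within a window. A match is a run of letters, not evidence of binding.

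The libraries held 14299807 to 45994561 counts. The epithelial markers EPCAM, KRT8, KRT18, KRT19, CDH1 and ERBB2 lay between 354 and 10525 CPM in every library, where CPM is a gene's count scaled to the effective size of its library. In the xenografts the summed fibroblast markers reached 23.1 to 26.4 CPM under HFD and 29.7 to 32.5 CPM under ND, nearly all of it COL1A1, while DCN, LUM and PDGFRA stayed at or below 0.161 CPM in all 24 libraries. In culture COL1A1 alone put that sum at 42.5 to 44.7 CPM with shYY2 against 10.5 to 11.1 CPM, and at 37.9 to 41.1 CPM with shFOXRED1 against 23.9 to 25.1 CPM. Summed immune markers were 14.4 to 14.5 CPM under HFD and 15.4 to 16.7 CPM under ND, with PTPRC near 0, hepatocyte markers were 18.5 to 27.8 CPM and 13.0 to 15.0 CPM, with means of 18.9 and 9.43 CPM for SERPINA1 and of 3.27 and 3.91 CPM for CYP2E1 and ALB at 0 and 0.0371 CPM, and endothelial and adipocyte markers did not pass 0.513 CPM in the xenografts. Squamous markers were 5.62 to 5.97 CPM under HFD against 4.46 to 5.06 CPM, 6.80 to 7.27 CPM with HA-TRIM15 against 2.85 to 3.9 CPM, and 4.49 to 5.47 CPM with shYY2 against 8.51 to 9.83 CPM. All of these are rows of human genes, while the hosts were mice and the handling of mouse reads is not given. The xenograft values therefore do not measure host cells. The part of these markers in the results was not tested. The targeted genes followed their labels. TRIM15 had 111 to 181 counts in the HA-TRIM15 libraries and 0 in EV. YY2 had 11 to 12 counts against 40 to 46, and FOXRED1 had 129 to 207 counts against 254 to 322. FOXRED1 was also lower with shYY2, at 268 to 330 counts against 544 to 647. Its log2 fold change was -0.89 there and -0.78 with shFOXRED1. With HA-TRIM15 it was -0.24 (edgeR adjusted p = 0.00509), and under HFD FOXRED1 was not called (edgeR adjusted p = 0.414). TRIM15 had 12 to 24 counts under HFD against 0 to 1 under ND (edgeR adjusted p = 2.72e-06). YY2 was not called under HFD or with HA-TRIM15 (edgeR adjusted p = 0.307 and 0.687).

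In every experiment 8 of the 10 members had enough counts for a test. The test was the quasi-likelihood F test of edgeR, Benjamini-Hochberg adjustment covered every gene tested in that experiment, and an adjusted p below 0.05 was taken as a call. Under HFD 3 members were called higher and 3 lower, against 25.6% and 23.9% of all 17012 genes tested (20.2% and 30.5% with upper-quartile scaling, where 1 member was called higher). With HA-TRIM15 1 member was called higher and 5 lower, against 12.5% and 9.53% of 15745 genes. The 5 became 3 without HA-TRIM15 library 2 or 3 or EV library 3. DESeq2's Wald test, which gave 4 of the members no adjusted p, called 0 higher and 2 lower, against 9.7% and 7.11% of all genes. With shYY2 6 members were called higher and 2 lower, against 36.8% and 38.1% of 16006 genes. With shFOXRED1 4 members were called higher and 3 lower, against 16.8% and 19.7% of 15730 genes. With a further limit of 1.2-fold the members called higher under HFD and lower with shYY2 both came to 0.

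The 3 treated and 3 control values did not overlap for 6 of the 8 tested members under HFD, 7 with HA-TRIM15, 8 with shYY2 and 7 with shFOXRED1. Among all tested genes the share without overlap was 56.2%, 37.7%, 76.3% and 46.7%, in the same order. The median size of a called change among all genes was 0.34 on the log2 scale under HFD, 0.215 with HA-TRIM15, 0.621 with shYY2 and 0.411 with shFOXRED1, and the members' sizes can be read against these.

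**Figure D1:**
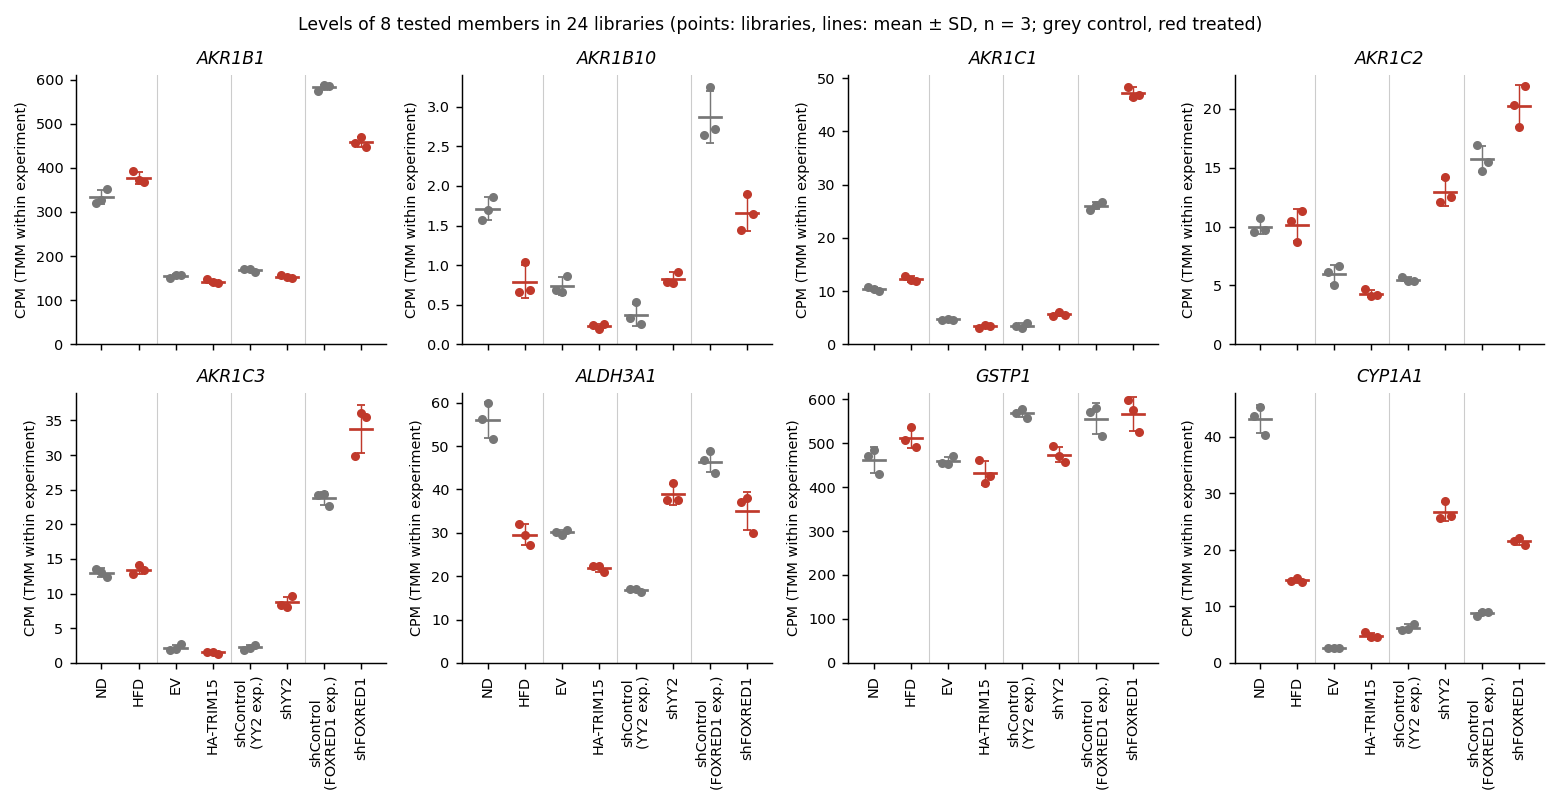
Level of each of the 8 tested members in every library, in CPM scaled within each experiment (vertical axis from 0), for the control (grey) and treated (red) groups of the 4 experiments. Points are libraries, and lines and bars give the mean ± SD of 3. CYP1A1 was lower with HFD and higher in the other 3 treated groups, and the AKR1C genes and AKR1B1 stood highest in the FOXRED1 experiment.

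CYP1A1 was called in all 4 experiments, lower in the xenografts of HFD mice and higher with HA-TRIM15, shYY2 and shFOXRED1. In the xenografts its level was 43.7, 45.2 and 40.3 CPM under ND and 14.4, 15.0 and 14.3 CPM under HFD. Every HFD library lay below every ND library, and the change was -1.57 on the log2 scale (SE 0.06), or 2.97-fold lower (edgeR adjusted p = 3.75e-12). That size was at or above that of 99.1% of the genes tested.

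With HA-TRIM15 the level of CYP1A1 was 5.41, 4.49 and 4.55 CPM, against 2.61, 2.59 and 2.62 CPM in EV. This was 1.86-fold higher (log2 0.89, SE 0.13, edgeR adjusted p = 0.000287), and no library of one group reached the other. With shYY2 it was 25.7, 28.6 and 25.9 CPM against 5.82, 5.96 and 6.91 CPM, which was 4.27-fold higher (log2 2.09, SE 0.09, edgeR adjusted p = 3.32e-12) and the largest change of any member in the study. With shFOXRED1 it was 21.6, 22.1 and 20.9 CPM against 8.36, 9.02 and 8.97 CPM, which was 2.45-fold higher (log2 1.29, SE 0.11, edgeR adjusted p = 5.67e-08). In both hairpin experiments the groups stood far apart relative to the spread within them. A limit of 2-fold ends the CYP1A1 call with HA-TRIM15, and no other alternative that gave CYP1A1 an adjusted p ended one of its calls.

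ALDH3A1, which oxidizes aromatic and medium-chain aldehydes, was also called in all 4 experiments but in another pattern, lower with HFD, HA-TRIM15 and shFOXRED1 and higher with shYY2. In the xenografts it was 56.2, 59.9 and 51.7 CPM under ND and 32.0, 29.5 and 27.1 CPM under HFD, 1.92-fold lower (log2 -0.94, SE 0.06, edgeR adjusted p = 4.09e-09). With HA-TRIM15 it was 22.4, 22.3 and 20.9 CPM against 30.2, 29.5 and 30.6 CPM, 1.38-fold lower (log2 -0.46, SE 0.06, edgeR adjusted p = 4.61e-05). The treated and control libraries were separate in both experiments.

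The YY2 experiment gave ALDH3A1 levels of 37.5, 41.6 and 37.5 CPM against 17.1, 17.1 and 16.2 CPM, 2.31-fold higher (log2 1.21, SE 0.06, edgeR adjusted p = 4.24e-11). With shFOXRED1 the levels were 37.0, 38.1 and 30.0 CPM against 46.8, 48.8 and 43.8 CPM, 1.32-fold lower (log2 -0.40, SE 0.09, edgeR adjusted p = 0.00163). Knockdown of YY2 and of FOXRED1 thus moved ALDH3A1 in opposite directions, each with groups that did not overlap.

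ALDH1A1, the retinaldehyde-oxidizing enzyme often used as a marker of progenitor-like tumor cells, was close to absent. It had at most 8 counts in a library and 0 in 3 libraries, and it did not reach the level for testing in any experiment. A difference in ALDH1A1 was not detectable at this depth.

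**Figure D2:**
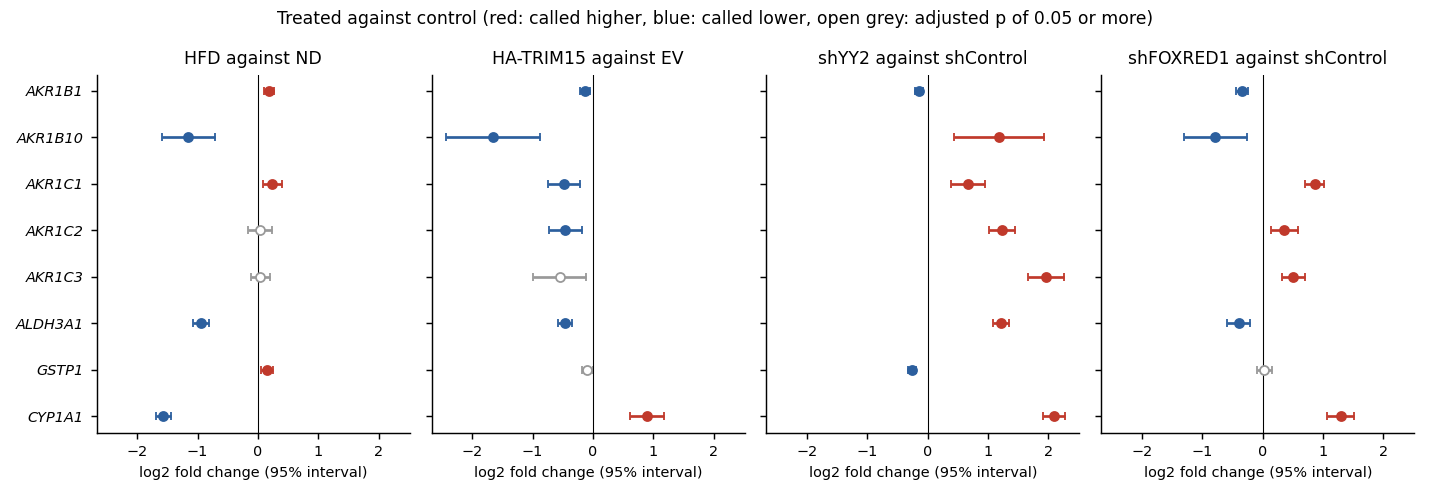
Log2 fold change of treated against control (horizontal axis) with its 95% interval for the 8 tested members, in a panel per experiment. Red points were called higher, blue points lower, and open grey points had an adjusted p of 0.05 or more. CYP1A1 stood at -1.57 under HFD and at 0.89, 2.09 and 1.29 in the other 3 experiments.

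The AKR1C enzymes, hydroxysteroid dehydrogenases of which AKR1C3 also makes prostaglandin F, rose with both hairpins, were at or a little above their controls under HFD and had values below their controls with HA-TRIM15. AKR1C3 had the largest fold change with shYY2 of the family. Its levels were 8.40, 8.10 and 9.68 CPM against 1.92, 2.19 and 2.57 CPM, or 3.9-fold higher (log2 1.96, SE 0.14, edgeR adjusted p = 3.00e-09). AKR1C2 was 12.1, 14.2 and 12.5 CPM against 5.71, 5.37 and 5.35 CPM in that experiment, 2.36-fold higher (log2 1.24, SE 0.10, edgeR adjusted p = 1.52e-08). The increase of AKR1C1 was smaller, from 3.46, 3.07 and 4.08 CPM to 5.42, 6.06 and 5.46 CPM, 1.59-fold (log2 0.67, SE 0.14, edgeR adjusted p = 0.000359). For all 3 genes every shYY2 library lay above every control library.

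Under shFOXRED1 the order within the family was different, with AKR1C1 changing most. It went from 25.3, 26.1 and 26.7 CPM in shControl to 48.4, 46.4 and 46.9 CPM, 1.81-fold (log2 0.86, SE 0.07, edgeR adjusted p = 9.18e-08). AKR1C3 went from 24.3, 24.4 and 22.6 CPM to 29.8, 36.0 and 35.4 CPM, 1.42-fold (log2 0.51, SE 0.09, edgeR adjusted p = 0.000300). AKR1C2, at 20.3, 18.4 and 22.0 CPM against 16.9, 14.7 and 15.5 CPM, was 1.28-fold higher (log2 0.36, SE 0.11, edgeR adjusted p = 0.0124). Without control library 2 the AKR1C2 call was lost, at an adjusted p of 0.0671, the highest over its alternatives, which began at 0.00442.

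With HA-TRIM15 the values of all 3 AKR1C genes lay below EV in every library. AKR1C1 was 3.07, 3.64 and 3.48 CPM against 4.64, 4.83 and 4.65 CPM, 1.39-fold lower (log2 -0.48, SE 0.12, edgeR adjusted p = 0.0131). AKR1C2 was 4.68, 4.10 and 4.17 CPM against 6.17, 5.01 and 6.63 CPM, 1.37-fold lower (log2 -0.46, SE 0.13, edgeR adjusted p = 0.0217). AKR1C3 was 1.61, 1.63 and 1.26 CPM against 1.92, 1.93 and 2.70 CPM and was not called (log2 -0.55, SE 0.20, edgeR adjusted p = 0.0652), although a fit over all 24 libraries gave 0.0413, the lowest over alternatives that reached 0.302. The AKR1C2 call was lost in 6 of 14 alternatives, with either HA-TRIM15 library 2 or 3 or EV library 1 or 3 left out (adjusted p from 0.0592 to 0.116) and with DESeq2, and the AKR1C1 call was lost with DESeq2 once its independent filtering was off (0.0863, where its other alternatives began at 0.00403).

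The AKR1C genes had their smallest log2 fold changes with diet. AKR1C1 was 12.9, 12.0 and 11.9 CPM under HFD against 10.8, 10.4 and 9.96 CPM under ND, 1.18-fold higher (log2 0.24, SE 0.08, edgeR adjusted p = 0.0150). That call was lost with upper-quartile scaling, with DESeq2 and without HFD library 1, where the adjusted p was 0.0629, the highest over alternatives that began at 0.00859. AKR1C2 differed by 0.04 on the log2 scale (95% interval -0.17 to 0.24, edgeR adjusted p = 0.776) and AKR1C3 by 0.04 (-0.11 to 0.19, edgeR adjusted p = 0.685), with overlapping groups for both.

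Adding the counts of AKR1C1, AKR1C2 and AKR1C3 into 1 row gives a total that does not depend on how reads were split among them. Reads that the authors' counting may have left out as ambiguous are still missing from it. The sum was 2.42-fold higher with shYY2 (log2 1.28, SE 0.07, edgeR adjusted p = 1.40e-10) and 1.54-fold higher with shFOXRED1 (log2 0.63, SE 0.06, edgeR adjusted p = 3.28e-07). It was 1.39-fold lower with HA-TRIM15 (log2 -0.48, SE 0.09, edgeR adjusted p = 0.00163), and under HFD it was not called (log2 0.10, SE 0.05, edgeR adjusted p = 0.0874). In each of the 3 experiments in cultured cells the members had a common direction, so the direction of the total was given by them in advance.

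The make-up of that total also differed between groups. With shYY2, AKR1C3 gave 32.0% ± 3.3 of the family's counts (SD, n = 3) against 19.8% ± 2.2 in its shControl, and AKR1C1 gave 20.7% ± 0.8 against 31.4% ± 2.6, with no overlap for either. With shFOXRED1 the share of AKR1C1 was 46.7% ± 2.2 against 39.8% ± 1.6 and that of AKR1C2 was 20.0% ± 1.5 against 24.0% ± 1.4, again without overlap. In the TRIM15 experiment the shares of all 3 genes overlapped between groups, with AKR1C2 at 46.9% ± 3.1 and 46.1% ± 3.2. These shares are counts, not molecules, since the genes differ in length.

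**Figure D3:**
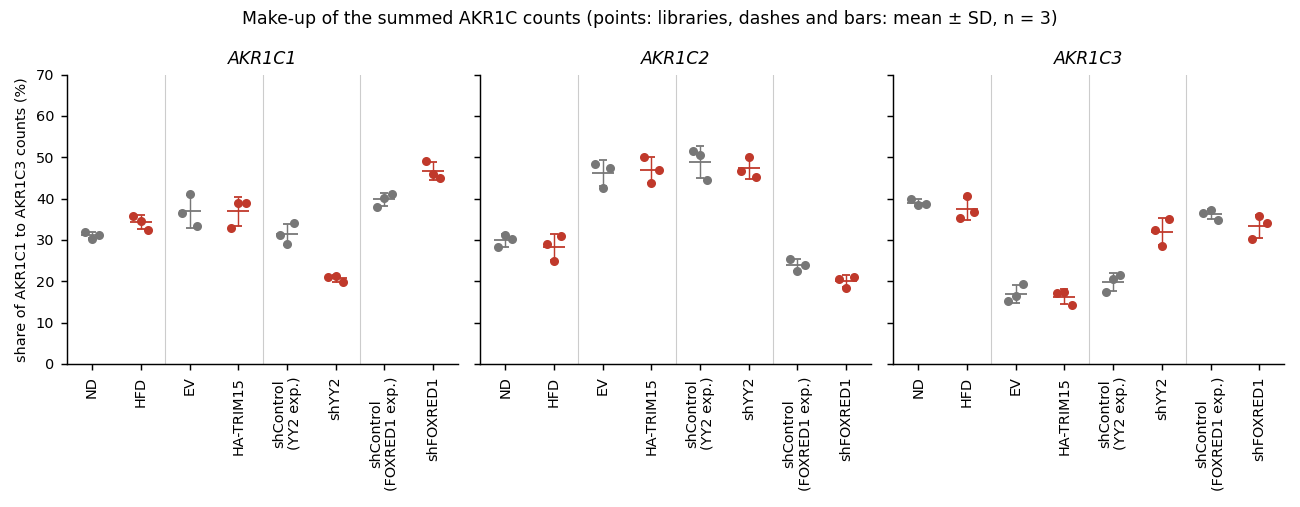
Share of the summed AKR1C1, AKR1C2 and AKR1C3 counts that each gene gave (percent, from 0) in the 8 groups, with points for libraries and dashes with bars for the mean ± SD of 3. AKR1C3 was at 19.8% in the shControl of YY2 and at 32.0% with shYY2, and AKR1C1 was at 46.7% with shFOXRED1.

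AKR1B10, which reduces retinaldehyde and other aldehydes, was a low-count gene that was called in every experiment. In the xenografts it had 15, 19 and 26 counts under HFD and 42, 81 and 40 under ND, or 0.658, 1.04 and 0.682 CPM against 1.57, 1.70 and 1.86 CPM. This was 2.22-fold lower (log2 -1.15, SE 0.21, edgeR adjusted p = 0.000241). With HA-TRIM15 it fell to 5, 3 and 4 counts from 14, 15 and 23 in EV, 3.15-fold lower in the fit (log2 -1.66, SE 0.37, edgeR adjusted p = 0.00496). Those HA-TRIM15 counts are near the limit of what these libraries can measure, and the size of the change is loose, with a 95% interval of -2.44 to -0.88.

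With shYY2 AKR1B10 had 13, 13 and 17 counts against 6, 9 and 5, 2.26-fold higher (log2 1.18, SE 0.35, edgeR adjusted p = 0.00671). With shFOXRED1 it had 26, 35 and 24 counts against 48, 49 and 40, 1.72-fold lower (log2 -0.78, SE 0.25, edgeR adjusted p = 0.0187). AKR1B10 and ALDH3A1 therefore carried the same sign in each of the 4 experiments. The shYY2 call was lost with DESeq2 (adjusted p = 0.0522, over alternatives from 0.00207), and the shFOXRED1 call was lost without shFOXRED1 library 1 or control library 2 (adjusted p = 0.0775 and 0.0843, over alternatives from 0.00153).

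AKR1B1, the aldose reductase of the polyol pathway, was abundant and had small changes in all 4 experiments. Under HFD it was 393, 372 and 368 CPM against 321, 328 and 352 CPM, 1.13-fold higher (log2 0.18, SE 0.04, edgeR adjusted p = 0.00156). With shFOXRED1 it was 456, 469.8 and 447 CPM against 575, 587 and 585 CPM, 1.27-fold lower (log2 -0.35, SE 0.04, edgeR adjusted p = 1.10e-05), its largest change. It was 1.09-fold lower with HA-TRIM15 (log2 -0.13, SE 0.04, edgeR adjusted p = 0.0210) and 1.10-fold lower with shYY2 (log2 -0.14, SE 0.03, edgeR adjusted p = 0.000620). The HA-TRIM15 call was lost when either HA-TRIM15 library 2 or 3 or EV library 2 or 3 was left out (adjusted p from 0.0643 to 0.0975, over alternatives from 0.000682), and the shYY2 call was lost with upper-quartile scaling (0.0973, over alternatives from 6.35e-05).

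GSTP1, the main glutathione transferase of many carcinomas, was the most abundant member, and none of its changes exceeded 0.26 on the log2 scale. With shYY2 it was 1.2-fold lower (493, 471 and 458 CPM against 569.6, 577 and 558 CPM, log2 -0.26, SE 0.03, edgeR adjusted p = 1.10e-06). Under HFD it was 1.11-fold higher (508, 536 and 492 CPM against 470.4, 485 and 429.7 CPM, log2 0.15, SE 0.04, edgeR adjusted p = 0.0114), a call that was lost with upper-quartile scaling and without HFD library 2 (adjusted p = 0.1 and 0.0606, over alternatives from 0.000613). It was not called with HA-TRIM15 (log2 -0.09, SE 0.04, edgeR adjusted p = 0.123) or with shFOXRED1 (log2 0.03, 95% interval -0.09 to 0.15, edgeR adjusted p = 0.745), and its groups overlapped in both. Without HA-TRIM15 library 1 or without a filter on counts it was called lower with HA-TRIM15, at adjusted p of 0.00037 and 0.0319, over alternatives that reached 0.446.

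UGT1A6 had 5 to 23 counts in the xenograft libraries and at most 6 in any cultured library, so it was not tested. The 9 UGT1A genes added together had 8 to 19 counts under HFD and 12 to 40 under ND (log2 -0.65, SE 0.27, edgeR adjusted p = 0.0564). With shYY2 the sum was 4 to 8 counts against 0 to 2, too few to test, and with shFOXRED1 it was 14 to 21 against 21 to 25 (log2 -0.50, SE 0.33, edgeR adjusted p = 0.258).

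Whether an effect differed between experiments was tested for 3 neighboring pairs of the chain in a single fit over all 24 libraries. The HFD effect differed from the HA-TRIM15 effect for 7 of 8 members, against 28.4% of all 17980 genes tested. CYP1A1 showed the largest difference, lower with HFD and higher with HA-TRIM15, at -2.46 on the log2 scale (SE 0.14, edgeR adjusted p = 1.36e-14). ALDH3A1 fell with both but more with HFD, by a difference of -0.47 (SE 0.10, edgeR adjusted p = 0.000871). For AKR1B10 the difference was 0.52 with a 95% interval of -0.34 to 1.37 (edgeR adjusted p = 0.472), which neither shows nor excludes a sizeable difference.

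The effects of HA-TRIM15 and shYY2 differed for 6 of 8 members, against 57.4% of genes. AKR1B10 (-2.87, SE 0.47, edgeR adjusted p = 4.75e-06), AKR1C3 (-2.56, SE 0.23, edgeR adjusted p = 8.43e-11) and ALDH3A1 (-1.71, SE 0.11, edgeR adjusted p = 6.11e-14) had lower values with HA-TRIM15 and rose with shYY2. CYP1A1 rose with both and more with shYY2 (-1.24, SE 0.15, edgeR adjusted p = 2.21e-08). AKR1B1 (-0.03, 95% interval -0.14 to 0.09) and GSTP1 (0.13, -0.02 to 0.29) were not called.

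The effects of shYY2 and shFOXRED1 differed for 7 of 8 members, against 55.5% of genes. AKR1B10 (2.00, SE 0.37, edgeR adjusted p = 3.35e-05) and ALDH3A1 (1.65, SE 0.11, edgeR adjusted p = 7.61e-14) rose with one hairpin and fell with the other. AKR1C3 (1.5, SE 0.17, edgeR adjusted p = 4.88e-09), AKR1C2 (0.92, SE 0.15, edgeR adjusted p = 5.45e-06) and CYP1A1 (0.84, SE 0.12, edgeR adjusted p = 4.76e-07) rose with both and, on the log2 scale, more with shYY2. The mean of AKR1C3 went from 2.23 to 8.73 CPM with shYY2 and from 23.7 to 33.8 CPM with shFOXRED1, a larger rise in CPM with shFOXRED1. AKR1C1 was not called, at -0.15 with a 95% interval of -0.42 to 0.11 (edgeR adjusted p = 0.356).

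Levels were compared between genes as CPM per kilobase of annotated exon, after all 24 libraries were scaled together. On that scale GSTP1 was highest in every group, with group means from 232 to 295, and its neighboring groups overlapped all along the order. AKR1B1 followed, from 39.8 in HA-TRIM15 to 158 in the shControl of the FOXRED1 experiment. ALDH3A1 ranged from 4.26 to 13.9, CYP1A1 from 0.782 to 12.2, AKR1C3 from 0.339 to 7.35, AKR1C1 from 0.397 to 5.32 and AKR1C2 from 0.685 to 3.09. The exon length joins all annotated exons of a gene, 8765 bases for AKR1C1, 6461 for AKR1C2 and 4532 for AKR1C3. The order among the AKR1C genes depends on it. With shFOXRED1 AKR1C1 had 46.6 CPM and AKR1C3 33.3 CPM, the reverse of their order per kilobase. AKR1B10 ranged from 0.136 to 1.64, and ALDH1A1 and UGT1A6 did not pass 0.0979.

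CYP1A1 was highest in ND xenografts, at 12.2 ± 0.7 (SD, n = 3), then shYY2 at 7.90 ± 0.47, shFOXRED1 at 6.18 ± 0.20 and HFD at 4.15 ± 0.12, and lowest in EV at 0.782 ± 0.004, with no overlap between any neighbors in that order. The HFD level of CYP1A1 was thus reduced against ND but above every control culture. AKR1C3 was highest with shFOXRED1 at 7.35 ± 0.75 and in its shControl at 5.21 ± 0.23, and the shControl of the YY2 experiment stood at 0.487 ± 0.072, close to EV at 0.496 ± 0.101, with which it overlapped.

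The shControl cultures of the hairpin experiments differed in level for most members. The mean of the FOXRED1 control was 10.7 times that of the YY2 control for AKR1C3, 7.76 times for AKR1B10, 7.38 times for AKR1C1, 3.45 times for AKR1B1 and 2.88 times for AKR1C2, while for GSTP1 the ratio was 0.98. These ratios have no test, since culture, hairpin series and library preparation cannot be told apart, and the effect of each hairpin is against its own control.

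The members sit in known pathways, and lists of the other genes of those pathways were read beside them, as counts called in the same fits with the median log2 fold change (median over all genes tested within 0.012 of 0 in each experiment). Over all genes tested, 25.6% were called higher and 23.9% lower under HFD, and 12.5% and 9.53% with HA-TRIM15. With shYY2 the shares were 36.8% and 38.1%, and with shFOXRED1 16.8% and 19.7%. A list count near these shares is not particular to its list. In the AHR pathway, of 11 tested genes 7 were called higher and 4 lower with shYY2 (median 0.41), 4 and 4 under HFD, 2 and 2 with HA-TRIM15 and 2 and 3 with shFOXRED1. AHRR, the repressor that AHR itself induces, changed in the direction of CYP1A1 in 3 experiments. It was 6.63-fold higher with shYY2 (log2 2.73, SE 0.21, edgeR adjusted p = 8.32e-09), 1.54-fold higher with shFOXRED1 (edgeR adjusted p = 0.0141) and 1.68-fold lower under HFD (edgeR adjusted p = 0.000326), and with HA-TRIM15 it was not called. CYP1B1, a further AHR target, was 4.75-fold higher with shYY2 and 1.62-fold lower under HFD, and 1.29-fold higher with HA-TRIM15, but 1.18-fold lower with shFOXRED1 (edgeR adjusted p = 0.00608), where CYP1A1 rose. Other genes of the pathway went the other way from CYP1A1 under HFD, with TIPARP, a further AHR target, 1.23-fold higher and ARNT2, a dimerization partner related to ARNT, 1.71-fold higher (edgeR adjusted p = 2.15e-06 and 1.14e-05).

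Among the drug-metabolizing cytochromes P450 and their redox partners, a list that also holds CYP1B1, 12 of 15 tested were called higher and 0 lower with shYY2 (median 0.91), and 0 were lower at an unadjusted p below 0.05 or by DESeq2. CYP4F12 was 4.28-fold higher there and 2.70-fold higher with shFOXRED1 (edgeR adjusted p = 4.96e-12 and 4.78e-07). Under HFD 4 were called higher and 5 lower of 17 (median -0.23), with CYP3A5 2.18-fold lower (edgeR adjusted p = 1.34e-12), with HA-TRIM15 2 and 2 of 14, and with shFOXRED1 6 and 3 of 17.

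The NRF2 targets outside the members were called in both directions in each experiment. With HA-TRIM15 2 of 30 were called higher and 12 lower (median -0.13), the side on which the AKR1C genes and ALDH3A1 lay. Under HFD 18 were called higher and 7 lower (median 0.16), with GSR, glutathione reductase, 1.63-fold higher (edgeR adjusted p = 2.50e-10), while ALDH3A1 and AKR1B10 fell. With shYY2, where 6 members rose, 13 were called higher and 12 lower (median -0.09), and with shFOXRED1 11 and 7 (median 0.14), where TXNRD1, thioredoxin reductase, was 1.79-fold lower (edgeR adjusted p = 1.46e-10). NQO1, a standard NRF2 target, was 1.11-fold lower under HFD, 1.13-fold lower with HA-TRIM15 and 1.05-fold higher with shYY2 (edgeR adjusted p = 0.00257, 0.00134 and 0.0493), and was not called with shFOXRED1.

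Among the NRF2 regulators 6 of 13 were called higher and 3 lower under HFD, 6 and 4 with HA-TRIM15, 5 and 7 with shYY2 and 4 and 2 with shFOXRED1 (medians 0.04, 0.13, -0.14 and 0.15). KEAP1, the adaptor that sends NRF2 to degradation, was 1.41-fold higher with shFOXRED1 and SQSTM1, which binds KEAP1, was 1.69-fold higher (edgeR adjusted p = 1.98e-05 and 1.34e-08). With HA-TRIM15 BACH1, a repressor at the same elements, was 1.31-fold higher, NFE2L2, which encodes NRF2, was 1.15-fold higher and KEAP1 was 1.19-fold lower (edgeR adjusted p = 2.33e-05, 0.00129 and 0.00448). BACH1 was also 1.34-fold higher under HFD (edgeR adjusted p = 8.19e-08).

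Of the other aldo-keto reductases 2 of 6 were called higher and 0 lower under HFD, 0 and 2 of 5 with HA-TRIM15, 1 and 3 of 6 with shYY2 and 0 and 0 of 5 with shFOXRED1 (medians 0.11, -0.20, -0.22 and -0.05). Each of these counts of 0 was also 0 at an unadjusted p below 0.05 and by DESeq2. AKR1B15, a close relative of AKR1B10, was 2.59-fold higher with shYY2 (edgeR adjusted p = 0.000788) and 1.36-fold higher under HFD (edgeR adjusted p = 0.0472), where AKR1B10 fell. Of the other aldehyde dehydrogenases 5 and 5 of 15 were called under HFD, 2 and 4 of 14 with HA-TRIM15, 8 and 5 of 14 with shYY2 and 3 and 5 of 14 with shFOXRED1 (medians 0.00, -0.04, 0.27 and -0.10). ALDH6A1, of valine and pyrimidine breakdown, was 5.06-fold higher with shYY2 (edgeR adjusted p = 3.21e-13).

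Of the other glutathione transferases 2 and 4 of 12 were called higher and lower under HFD, 0 and 3 with HA-TRIM15 (0 higher also unadjusted and by DESeq2), 7 and 4 with shYY2 and 2 and 4 with shFOXRED1 (medians -0.08, -0.15, 0.38 and -0.05). MGST1, a membrane-bound transferase, was 1.85-fold higher under HFD (edgeR adjusted p = 1.58e-10) and GSTA4, which conjugates hydroxynonenal, was 4.12-fold higher with shYY2 (edgeR adjusted p = 2.51e-07), where GSTP1 fell. Of the other glucuronosyltransferases 1 or 2 of 20 could be tested. UGT2B7, tested in all 4 experiments, was 1.98-fold lower with shYY2 (edgeR adjusted p = 9.96e-11) and 1.19-fold higher with shFOXRED1 (edgeR adjusted p = 0.00526).

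**Figure D4:**
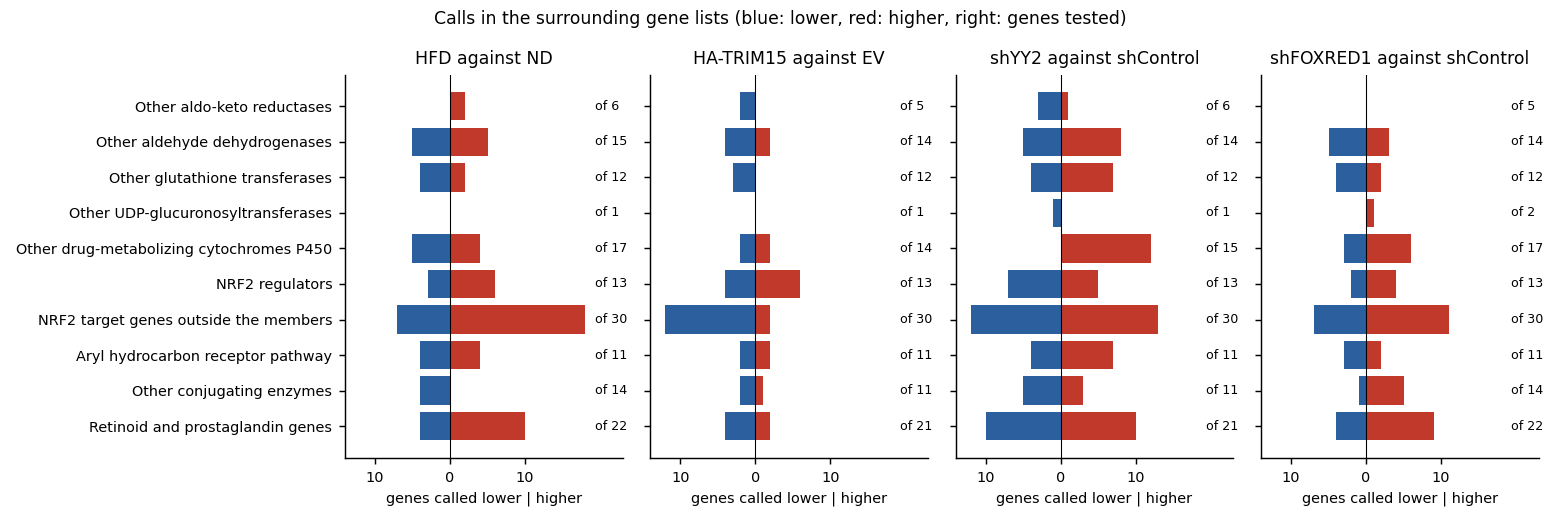
Number of genes called higher (red, to the right) and lower (blue, to the left) in each pathway list, in a panel per experiment, with the number tested at the right. The 15 tested cytochromes P450 and redox partners had 12 calls higher and 0 lower with shYY2. The 30 NRF2 targets had 2 calls higher and 12 lower with HA-TRIM15. Over all genes tested 36.8% were called higher and 38.1% lower with shYY2, and 12.5% and 9.53% with HA-TRIM15.

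The profile of each member over the 24 libraries, as log2 CPM centered within each experiment, was compared with 13037 or 13038 genes of at least 1 CPM in every experiment. These correlations rest on libraries that share treatments and are descriptions only. Closest to CYP1A1 were IL6R (r = 0.977) and SOX4 (r = 0.958), closest to ALDH3A1 were SOX21 (0.955) and PCDH7 (0.953), and closest to AKR1C3 were ANO9 (0.961) and ALDH3B1 (0.960). AKR1C1 was nearest to GSTZ1 (0.938) and CSAD (0.937), AKR1C2 to FOS (0.953) and HOXB8 (0.952), AKR1B1 to SLC25A3 (0.936) and ANKS6 (0.928), AKR1B10 to CCNO (0.910) and NR2F2 (0.883), and GSTP1 to PLCB3 (0.893) and SLC39A4 (0.890). Among members the highest were AKR1C2 with AKR1C3 (0.929), AKR1B10 with ALDH3A1 (0.836) and AKR1C1 with AKR1C2 (0.756).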

How the data were processed

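The authors deposited 4 tables of raw counts per Ensembl gene, 1 per experiment, made from 150-base paired-end reads of poly(A) RNA. The submitters' processing notes name hg38 and mm10. Aligner, counter and use of strand are not given in the sources used here, nor how mouse reads of the xenografts were handled. All 24 value columns were used. The header of the TRIM15 table holds 3 empty cells, and its 6 sample names were read in order over the 6 value columns.

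Each table was fitted with edgeR 4.0.16 in R 4.3.3 (TMM scaling, filterByExpr with a minimum count of 10, quasi-likelihood test without a block), and the differences of effects in 1 fit over 24 libraries. Standard errors come from the fold change and its F statistic, and the fits were tested on simulated counts. Libraries of a group differed by more than sampling noise (chi-square per gene 1.47 to 7.94, where sampling alone gives 1). The members and lists were chosen with earlier results of these data known. From each list and comparison at most 2 called genes of at least 1 CPM with the largest change and non-overlapping groups were named. NQO1, AHRR, NFE2L2 and KEAP1 with HA-TRIM15, CYP1B1 with shFOXRED1, and TIPARP and BACH1 under HFD were added after their values were seen.

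Replicate numbers were checked as pairs by correlating deviations from the group means of same-numbered libraries. Over all genes tested the correlation lay between -0.0275 and 0.097, and over genes of at least 10 CPM it was 0.211, 0.125 and 0.41 in the FOXRED1 experiment, above the limit of 0.1, and at or below 0.1 for at least 1 number in each other experiment. The labels give no reason for a pairing.

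Alternatives were DESeq2 1.42.0 size factors and Wald test, upper-quartile scaling, other filters, limits of 1.2-fold and 2-fold, a joint fit, a replicate block, leaving out each library, and, chosen after seeing the data, DESeq2 without independent filtering.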

Additional observations from a re-analysis of the deposited data

Results flagged for a closer look

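Each value here is a difference between the effects of 2 experiments on the log2 scale whose test across all genes passed an adjusted p of 0.05, and each was flagged for that difference. The share of all genes with such a difference was 28.4%, 57.4% and 55.5% for the 3 pairs, so a flag alone is common.

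For the HFD effect minus the HA-TRIM15 effect the differences were -2.46 for CYP1A1, -0.47 for ALDH3A1, 0.73 for AKR1C1, 0.60 for AKR1C3, 0.50 for AKR1C2, 0.31 for AKR1B1 and 0.24 for GSTP1. CYP1A1 was called lower with HFD and higher with HA-TRIM15, and AKR1C1 and AKR1B1 were called higher with HFD and lower with HA-TRIM15. The AKR1C2 difference was lost without HFD library 3, HA-TRIM15 library 2 or 3 or EV library 3 (edgeR adjusted p up to 0.0956), and the AKR1C3 difference without HFD library 2, ND library 3, HA-TRIM15 library 3 or EV library 3 (up to 0.227).

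For the HA-TRIM15 effect minus the shYY2 effect they were -2.87 for AKR1B10, -2.56 for AKR1C3, -1.73 for AKR1C2, -1.71 for ALDH3A1, -1.24 for CYP1A1 and -1.18 for AKR1C1. For AKR1B10, AKR1C1, AKR1C2 and ALDH3A1 the HA-TRIM15 effect was a call below its control and the shYY2 effect a call above it.

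For the shYY2 effect minus the shFOXRED1 effect they were 2.00 for AKR1B10, 1.65 for ALDH3A1, 1.5 for AKR1C3, 0.92 for AKR1C2, 0.84 for CYP1A1, 0.25 for AKR1B1 and -0.25 for GSTP1. AKR1B10 and ALDH3A1 turned direction between the hairpins.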

How the results depend on the processing

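With a fold limit of 1.2 the members called higher under HFD and lower with shYY2 went to 0 and 0. With a limit of 2-fold they were 0 higher under HFD, 0 higher and 1 lower with HA-TRIM15, 0 lower with shYY2, and 1 higher and 0 lower with shFOXRED1. With upper-quartile scaling 1 was higher under HFD and 1 lower with shYY2, against 20.2% and 33.9% of all genes. DESeq2's Wald test gave 0 higher and 2 lower with HA-TRIM15 (9.7% and 7.11% of all genes), where 4 members, CYP1A1 among them, had no adjusted p. It gave 1 higher and 3 lower without independent filtering. Leaving out 1 library gave 3 to 6 lower with HA-TRIM15, with 3 when HA-TRIM15 library 2 or 3 or EV library 3 was out. With the replicate block the counts were 3 and 3, 1 and 5, 6 and 2, and 4 and 3 in the order of the report, and none of the 40 member results changed side or direction. No called result reversed. Of 250 single log2 fold changes under settings other than left-out libraries 10 lost and 2 gained a call, and of 192 with a library left out 13 lost and 1 gained. Of 693 such results for the differences of effects 8 lost and 2 gained a call, all 8 losses being AKR1C2 or AKR1C3 in HFD against HA-TRIM15 and both gains GSTP1 in HA-TRIM15 against shYY2. Low counts limited ALDH1A1, UGT1A6 and the sizes for AKR1B10, which a filter of 10 counts in every library removed from the HA-TRIM15 and shYY2 fits.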

Other observations

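Beyond the members, other conjugating enzymes (sulfotransferases, acetyltransferases, esterases and flavin monooxygenases) had 0 genes called higher (1 at an unadjusted p below 0.05, 0 by DESeq2) and 4 lower of 14 under HFD (median log2 fold change -0.09), 1 and 2 of 11 with HA-TRIM15 (-0.01), 3 and 5 of 11 with shYY2 (0.01) and 5 and 1 of 14 with shFOXRED1 (0.27). FMO5, a flavin monooxygenase, was 1.89-fold lower under HFD (edgeR adjusted p = 4.38e-06) and 4.91-fold higher with shYY2 (edgeR adjusted p = 1.96e-10), the same directions as CYP1A1 in those experiments.

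The retinoid and prostaglandin genes had 10 called higher and 4 lower of 22 under HFD (median 0.06), 2 and 4 of 21 with HA-TRIM15 (-0.07), 10 and 10 of 21 with shYY2 (0.09) and 9 and 4 of 22 with shFOXRED1 (0.10). PTGS1 and PTGS2, the cyclooxygenases upstream of AKR1C3 in prostaglandin synthesis, moved apart with shYY2, PTGS1 3.43-fold higher (edgeR adjusted p = 1.49e-10) and PTGS2 4.39-fold lower (edgeR adjusted p = 2.79e-14). PTGS2 was 1.55-fold higher with HA-TRIM15 (edgeR adjusted p = 1.56e-07). RDH10, a retinol dehydrogenase, was 1.62-fold higher with shFOXRED1 (edgeR adjusted p = 5.51e-09). The shares of all genes called, given with the pathway lists, apply to the counts of conjugating, retinoid and prostaglandin genes as well.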
